A study of Mus musculus with 12 samples.

Results

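Mitochondrial ribosomal protein genes are nuclear genes whose products are made in the cytosol, imported into mitochondria and built into the mitochondrial ribosome. They were taken here as the rows of the deposited count table whose symbol starts with Mrpl or Mrps followed by a digit, with at least 10 counts in at least 3 samples. Of the 24421 gene rows, 77 carried such a symbol, and all 77 met the count rule and the filter used for testing. By role, 50 encode proteins of the large subunit, among them Mrps18a and Mrps30 despite their names, and 26 encode proteins of the small subunit. The remaining one, Mrps36, kept its ribosomal name although its product is now known as a part of the 2-oxoglutarate dehydrogenase complex. Polyadenylated RNA had been sequenced from E14 mouse embryonic stem cells, an established line, in 4 groups of 3 samples. All cells grew on gelatin for 2 weeks in medium with serum and LIF. The groups were wild-type cells without inhibitor (WT FBS), wild-type cells held with 200 nM INK128, an mTOR kinase inhibitor (WT paused), and cells with a knockout of Mettl3, the catalytic subunit of the messenger RNA m6A methyltransferase, in both conditions (KO FBS and KO paused). The labels give neither the deleted part of Mettl3 nor the number of knockout clones, and they do not state whether replicates were separate cultures, so p-values measure only the spread between these samples.

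The mitochondrial ribosome translates the few messages of the mitochondrial genome, all of which encode subunits of the oxidative phosphorylation complexes. Part of its proteins descend from bacterial ribosomal proteins and the rest were added in the mitochondrial lineage. The large subunit carries the stalk that recruits translation factors, the exit tunnel through which the new chain leaves at the inner membrane, and the central protuberance that faces the small subunit. mTOR complex 1 is known to promote the making of mitochondrial proteins, partly through translation of their messages and partly through transcription, and INK128 blocks its kinase. m6A on messenger RNA is best known as a mark that shortens the life of a message. The design asks how the level of each message changed on pausing in either genotype and how the genotypes differed in either condition.

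The stretches around the start sites of these genes are shown because several motifs lay in them more often than in promoters at large. These are motifs of factors known for driving nuclear genes of mitochondria. RefSeq promoter sequences (GRCm38.p6, 300 bases each) matched 68 of the 77 genes with 74 promoters. The 7 letters CCGGAAG, the core bound by ETS factors such as GABP, were found on either strand in 25 of these promoters (33.8%). The share was 15.5% among the 14415 promoters of tested genes and 8.86% among all 32851 promoters. AAGATGGC, a core of the YY1 site, was found in 12 member promoters (16.2%, against 3.91% of those of tested genes). GCATGCGC, a core of the NRF1 site, was found in 8 (10.8%, against 4.82%), and the full NRF1 palindrome, which contains it on both strands, in 3 (4.05%, against 1.87%). The E-box CACGTG bound by Myc and Max was found in 7 (9.46%, against 9.67%). A match describes the letters only. The windows below run from 170 bases before to 30 bases after the annotated start, 5′ to 3′ on the gene's strand, with matched letters in capitals. Mrpl43 (chr19:45006413-45006612, minus strand), the gene with the highest knockout to wild-type difference in FBS, held 2 ETS matches, starting at positions -56 and -12. Mrpl9 (chr3:94443166-94443365, plus strand) held the full NRF1 palindrome, and Mrpl32 (chr13:14613008-14613207, minus strand), the member with the most NRF1 letters, held them on 3 stretches. Mrps18a (chr17:46110834-46111033, plus strand) held an ETS and a YY1 match. Mrpl57 (chr14:57826069-57826268, plus strand), the gene called higher on pausing in KO cells, held an ETS match just after its start. Mrpl12 (chr11:120484467-120484666, plus strand) and Mrpl45 (chr11:97315546-97315745, plus strand), which were lower on pausing in both genotypes, held none of these letters in the window.
Mrpl43: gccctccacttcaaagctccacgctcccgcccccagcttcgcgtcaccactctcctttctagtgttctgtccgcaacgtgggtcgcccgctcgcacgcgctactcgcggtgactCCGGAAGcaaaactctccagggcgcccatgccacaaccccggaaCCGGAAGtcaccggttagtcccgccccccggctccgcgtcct
Mrpl9: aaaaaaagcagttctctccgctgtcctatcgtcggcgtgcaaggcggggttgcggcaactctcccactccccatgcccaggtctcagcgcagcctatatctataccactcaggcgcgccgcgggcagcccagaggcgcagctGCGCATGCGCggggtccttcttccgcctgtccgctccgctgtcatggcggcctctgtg
Mrpl32: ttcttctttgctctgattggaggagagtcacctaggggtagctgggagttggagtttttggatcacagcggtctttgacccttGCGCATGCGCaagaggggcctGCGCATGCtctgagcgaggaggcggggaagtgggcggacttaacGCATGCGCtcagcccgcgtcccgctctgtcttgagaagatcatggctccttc
Mrps18a: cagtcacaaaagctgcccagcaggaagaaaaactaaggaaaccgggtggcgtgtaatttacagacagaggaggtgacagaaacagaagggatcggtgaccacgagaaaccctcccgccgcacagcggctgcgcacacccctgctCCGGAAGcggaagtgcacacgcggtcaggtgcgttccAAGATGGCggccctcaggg
Mrpl57: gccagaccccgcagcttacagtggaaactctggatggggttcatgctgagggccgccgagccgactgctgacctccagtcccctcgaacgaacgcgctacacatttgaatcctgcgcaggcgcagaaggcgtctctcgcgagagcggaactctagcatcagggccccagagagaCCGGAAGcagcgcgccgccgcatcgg
Mrpl12: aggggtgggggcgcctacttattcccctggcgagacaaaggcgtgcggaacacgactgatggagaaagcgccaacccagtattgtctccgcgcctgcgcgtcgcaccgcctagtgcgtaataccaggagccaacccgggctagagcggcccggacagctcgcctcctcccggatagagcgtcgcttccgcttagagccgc
Mrpl45: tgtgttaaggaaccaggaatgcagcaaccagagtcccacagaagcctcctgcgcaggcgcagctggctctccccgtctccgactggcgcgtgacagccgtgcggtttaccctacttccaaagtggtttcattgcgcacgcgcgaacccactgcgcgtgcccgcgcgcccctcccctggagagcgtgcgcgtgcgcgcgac

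On pausing, members with and without the ETS letters had these values. The median log2 change on pausing in WT cells was -0.57 over the 25 members with ETS letters, 17 of them called lower, and -0.52 over the 43 without, 30 of them called lower. In KO cells the medians were -0.29 and -0.30, with 7 of 25 and 19 of 43 called lower. Of the 8 members with the shorter NRF1 letters 7 were lower in WT cells and 4 in KO cells, and of the 60 without them 40 and 22. These values are descriptions, with no test.

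Libraries held between 10615548 and 39566713 counts, and no member had a count of 0 in any library. The lowest single count was 58, for Mrpl14, and the highest was 5732, for Mrpl15. Mettl3 messages were still counted in the KO libraries, at 25.5 to 31.5 CPM (counts scaled to a common gene total, with TMM factors between libraries) against 31.2 to 39.1 CPM in WT libraries. KO and WT libraries did not overlap within a condition, with log2 differences of -0.32 ± 0.10 in FBS and -0.25 ± 0.10 when paused, and the knockout was seen only as this small difference. WT FBS replicate 1 stood apart: 74 of the 77 members were lowest of their group in it, by a median of -0.65 on the log2 scale against the other WT FBS replicates, where the median of all tested genes was -0.06. It differed beyond the members: 1560 tested genes lay more than 2-fold from the other WT FBS replicates, against 200 for replicate 2 and 152 for replicate 3. Replicate 1 had 12027770 counts in total, against 39566713 and 30643409 in replicates 2 and 3. A larger share of its gene counts fell on the ribosomal RNA precursor Rn45s and on Lars2, a row that often collects ribosomal reads. That share was 30.7%, against 19.2% and 16.7% in replicates 2 and 3. Replicate 1 had the highest such share in all 4 groups and the lowest level of 71 members among KO FBS libraries, of 51 among WT paused and of 45 among KO paused libraries. The part of this share in the results was not tested, and the counts of calls are given with and without WT FBS replicate 1. The 8 embryonic stem cell markers summed to 3230 to 4490 CPM in WT and to 1930 to 2940 CPM in KO libraries, with no overlap, and 5 of the 8 were called lower in KO cells in each condition. Of 6 markers each, extraembryonic endoderm summed to 46.3 to 91.4 CPM in WT FBS, highest in replicate 1, and to at most 23.8 CPM elsewhere. Trophoblast markers summed to 128 to 188 CPM in KO FBS and to at most 23 CPM in the other groups, and fibroblast markers to 10.5 to 17.6 CPM in FBS and 3.26 to 4.58 CPM in paused libraries, with 4 of 5 tested called lower on pausing in each genotype. Sox17, Krt7, Elf5, Col1a2 and Postn were at 0 in some libraries and no marker was at 0 in all. The part of these markers in the results was not tested.

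Together the members made up 2042, 3219 and 2989 CPM in WT FBS replicates 1, 2 and 3 and 1859, 2009 and 1998 CPM in WT paused. In KO cells they made up 2666, 2990 and 3148 CPM in FBS and 2240, 2294 and 2387 CPM when paused. Both genotypes were thus lower when paused with no overlap, although WT FBS replicate 1 lay just above the paused libraries. Means ± SD (n = 3) were 2750 ± 623.9 and 1955 ± 83.44 CPM in WT cells and 2935 ± 245.6 and 2307 ± 74.11 CPM in KO cells. The genotypes overlapped in FBS, while every KO paused library was above every WT paused library. Large and small subunit genes moved together, and the ratio of their sums stayed between 2.043 and 2.244 over the 12 libraries. Per 1000 counts of the ERCC spike-in, which was added to RNA of equal numbers of cells and so stands for RNA per cell, the members gave 130.2, 195.8 and 222.4 counts in WT FBS and 45.98, 79.98 and 66.1 in WT paused. In KO cells they gave 127.8, 289.5 and 217.7 in FBS and 84.78, 106.4 and 101.8 when paused. In bulk samples, fewer cells of a type and less RNA per cell cannot be told apart.

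**Figure D1:**
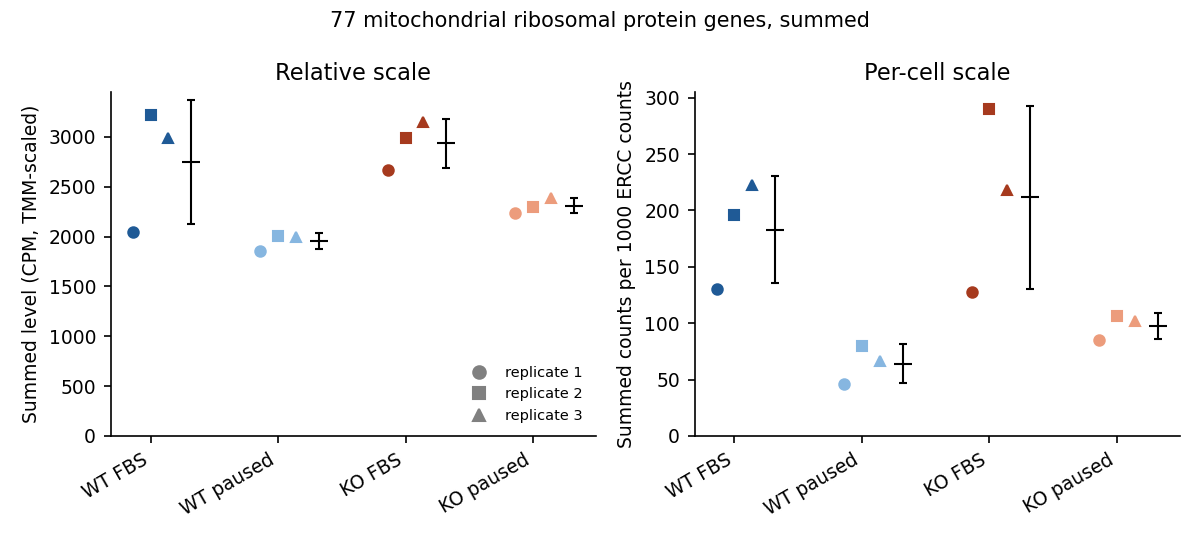
Summed level of the 77 genes in each of the 12 libraries, as TMM-scaled CPM (left) and as counts per 1000 ERCC counts (right). Marker shape gives the replicate number, and bars give mean ± SD (n = 3). Paused libraries lie below FBS libraries of their genotype in both panels, and WT FBS replicate 1, at 2042 CPM, lies far below the other WT FBS replicates.

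Per kilobase of annotated exon, where levels of different genes can be compared, Mrpl18 (58.0 CPM per kb) and Mrpl12 (44.0) were the most abundant members in WT FBS cells and Mrpl33 (2.38) and Mrpl48 (2.58) the least. In KO FBS cells the highest were Mrpl12 (71.9), Mrpl45 (48.8), Mrps2 (47.7) and Mrpl43 (47.5), and the lowest Mrpl48 (1.96). Mrpl41 had the fewest counts over all libraries (2531) and Mrpl15 the most (32892). Exon lengths were merged over all annotated transcripts, so the order depends on isoforms that a gene may not use in these cells. Mrpl18 shares 141 exon bases with Tcp1 on the opposite strand, and the strand setting of the counting is not given.

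Pausing of WT cells lowered most of these messages relative to the typical gene. With edgeR's quasi-likelihood test and Benjamini-Hochberg adjustment over 15281 genes (threshold 0.05), 52 of the 77 members were called lower and none higher. Among all tested genes 20.2% were called lower and 18.0% higher. The median log2 change was -0.52, against -0.02 over all genes, and 76 members had a fitted value below 0. The replicates did not overlap for 31 members, all lower, with 19.2% of all genes not overlapping in that direction and 20.1% in the other. With WT FBS replicate 1 left out, 73 were lower, with 31.1% of all genes called lower. The count was 27 without WT FBS replicate 2, 33 without WT FBS replicate 3 and 18 with library totals in place of TMM scaling. DESeq2 called none higher either, and none was higher at an unadjusted p below 0.05.

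The stalk protein gene Mrpl12, whose product occurs in several copies and contacts translation factors, showed the largest fall. It stood at 35.45, 85.64 and 81.1 CPM in WT FBS and at 33.2, 36.4 and 34.1 CPM in WT paused. FBS replicates 2 and 3 were thus far above all paused libraries, and replicate 1 lay among them. The log2 change was -0.98 ± 0.24 (SE, edgeR adjusted p = 0.00808), a level 0.508 times that in FBS. Mrpl45, which helps to hold the ribosome at the inner membrane near the exit tunnel, stood at 68, 91.23 and 82.3 CPM in WT FBS and at 45.18, 42.82 and 44.85 CPM in WT paused. These groups did not overlap, and the change was -0.87 ± 0.11 (edgeR adjusted p = 0.000176). Mrpl13, the homologue of bacterial L13, stood at 25.72, 44.56 and 44.94 CPM and at 20.84, 20.29 and 20.23 CPM, a change of -0.92 ± 0.17 (edgeR adjusted p = 0.00151). Its lowest FBS library was above every paused library.

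Other members with large falls in WT cells came from both subunits. Mrps6, a bacterial-type protein of the small subunit, changed by -0.84 ± 0.19, and Mrpl18, of the central protuberance, by -0.83 ± 0.18. Mrpl48, also of the central protuberance, changed by -0.80 ± 0.17 and Mrpl42, a mitochondria-specific large subunit protein, by -0.74 ± 0.17. Copies of Mrpl48 and Mrpl42 with at least 95% identity lie elsewhere in the genome, so their counts may hold reads from those copies. All of these calls were made in each of the 12 fits that left out 1 library. Mrpl48 shares 708 exon bases with Rab6a and Mrpl18 141 with Tcp1, on the opposite strand. Rab6a (-0.45) and Tcp1 (-0.44) were called lower on pausing of WT cells too. Mtbp, which shares 330 opposite-strand bases with Mrpl13, changed by -0.03 and was not called. The strand setting of the counting is not given, and the part of shared reads in these falls was not tested. Mrpl23 was the one member with a fitted value above 0, at 13, 14.83 and 14.23 CPM in WT FBS and 12.46, 15.36 and 15.45 CPM in WT paused. These groups overlapped (log2 change 0.04 ± 0.12).

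By part of the ribosome, the stalk had 3 of its 5 genes called lower in WT cells, with values of -0.98 for Mrpl12, -0.60 ± 0.15 for Mrpl11 and -0.43 ± 0.14 for Mrpl10, the stalk base. Mrpl53 (-0.19 ± 0.18) and Mrpl54 (-0.31 ± 0.23) did not pass the test. The count was 5 without WT FBS replicate 1, and the call of Mrpl10 was lost when WT FBS replicate 2, WT FBS replicate 3, WT paused replicate 1 or WT paused replicate 3 was left out, with -0.31 as the value nearest 0. The exit tunnel had 4 of 7 lower: Mrpl45, Mrpl44 (-0.67 ± 0.12), Mrpl22 (-0.65 ± 0.15) and Mrpl47 (-0.62 ± 0.14). Mrpl17 (-0.18 ± 0.21), Mrpl24 (-0.07 ± 0.19) and Mrpl23 did not pass. Mrpl47 shares 1068 opposite-strand exon bases with Actl6a and Ndufb5 together, and both were called lower in WT cells too (-0.50 and -0.37). Mrpl44 shares 126 with Wdfy1, which changed by 0.09 and was not called. The central protuberance had 5 of 6 lower, a count that was 2 without WT FBS replicate 2 or 3 or without WT paused replicate 3, and 3 without WT paused replicate 1. Bacterial-type proteins were called lower in 20 of 30 large and 10 of 16 small subunit genes, and mitochondria-specific ones in 12 of 20 large and 9 of 10 small subunit genes. Without WT FBS replicate 2 these counts were 12, 5, 6 and 4, and without WT FBS replicate 3 the small subunit counts were 6 and 5. Mrps36, which is no ribosomal protein, fell as well, by 0.63 on the log2 scale (edgeR adjusted p = 0.0179), a call lost in the same 4 fits, with -0.52 as the value nearest 0.

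Pausing of KO cells also lowered part of the members. By the same test 28 of 77 were called lower and 1 higher, among 19.4% of all genes lower and 23.3% higher. The median was -0.29 (0.03 over all genes), and 66 members had a fitted value below 0. The replicates did not overlap for 49 lower and 3 higher members, against 30.7% and 35.0% of all genes. In the fit without WT FBS replicate 1, which enters only through scaling and the shared estimate of spread, 50 members were lower and 3 higher. The shares of all genes rose too in that fit, to 29.9% lower and 29.9% higher. The count of lower members was 16 without KO FBS replicate 2, 13 without KO FBS replicate 3, and 13, 15 and 16 without KO paused replicates 1, 2 and 3. Library totals in place of TMM gave 13 lower. The count of higher members was 2 without WT FBS replicate 2. With the replicate number as a block shared by all 12 libraries, 32 members were lower and 3 higher. That fit gave WT and KO libraries the same replicate effect, so it is no pairing of the KO libraries alone. Its shares of all genes called are not given here.

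The lowest values in KO cells belonged to Mrpl30, Mrpl12, Mrps7 and Mrpl45. Mrpl30, the homologue of bacterial L30, stood at 33.92, 36.31 and 39.75 CPM in KO FBS and at 16.74, 16.42 and 19.38 CPM in KO paused. The highest paused library was below every FBS library (log2 change -1.06 ± 0.15, edgeR adjusted p = 0.00016). Mrpl12 went from 95.14, 114.5 and 120.8 CPM to 50.72, 52.1 and 58.32 CPM (-1.03 ± 0.24, edgeR adjusted p = 0.00393). Mrpl45 went from 111.7, 130.4 and 137.7 CPM to 59.24, 63.41 and 66.91 CPM (0.499 times the FBS level, edgeR adjusted p = 2.46e-05). In KO cells, unlike WT FBS replicate 1 for Mrpl12, no library of either gene overlapped the other condition.

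Mrps7, the homologue of the bacterial S7 that organises the head of the small subunit, went from 67.32, 74.95 and 79.28 CPM in KO FBS to 37.3, 35.26 and 36.29 CPM in KO paused. The change was -1.02 ± 0.20 (edgeR adjusted p = 0.00121), and the groups were far apart. In WT cells its value was -0.50 ± 0.20 (edgeR adjusted p = 0.0664), and its pausing effects were not shown to differ (difference -0.52 ± 0.28, adjusted p = 0.222). Mrps7 shares 246 exon bases with Gga3 and Mif4gd together, on the opposite strand. Both were called lower on pausing of KO cells (-0.39 and -0.47) and neither was called in WT cells (0.002 and 0.04). The part of shared reads in the values of Mrps7 was not tested. Further members that fell in KO cells, each in all 12 fits that left out 1 library, were Mrps23 (-0.69 ± 0.12), a mitochondria-specific small subunit protein, Mrpl38 (-0.69 ± 0.15), of the central protuberance, Mrps9 (-0.68 ± 0.08), a bacterial-type small subunit protein, Mrpl10 (-0.58 ± 0.14) and Mrpl27 (-0.55 ± 0.11), of the central protuberance, whose near-identical copies elsewhere may share its reads.

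Mrpl57, a small mitochondria-specific protein of the large subunit, was the one member called higher on pausing in KO cells. It stood at 9.917, 11.9 and 13.28 CPM in KO FBS and at 16.6, 17.03 and 17.52 CPM in KO paused. All paused libraries were above all FBS libraries (0.54 ± 0.14, edgeR adjusted p = 0.00712), and the call was made in all 12 fits that left out 1 library. In WT cells it stood at 8.187, 11.66 and 11.35 CPM in FBS and 10.13, 10.33 and 10.16 CPM when paused, with a change of -0.05 ± 0.15. The difference between these pausing effects was 0.59 ± 0.20 and did not pass the test (edgeR adjusted p = 0.0603).

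Of the 52 members lower in WT cells 25 (48.1%) were also lower in KO cells, where they made up 89.3% of the 28. Central protuberance genes were lower in KO cells in 4 of 6 cases (2 without KO paused replicate 1), stalk genes in 2 of 5 and exit tunnel genes in 1 of 7, that one being Mrpl45 (3 without WT FBS replicate 1). Mrps31, a mitochondria-specific small subunit protein, and Mrpl43, a mitochondria-specific large subunit protein, were among those lower in both. The change of Mrps31 was -0.53 ± 0.10 in WT and -0.30 ± 0.10 in KO cells, and the latter call was lost when KO FBS replicate 3, KO paused replicate 1 or KO paused replicate 2 was left out (value nearest 0, -0.23). Mrpl43 changed by -0.43 ± 0.12 in WT and -0.53 ± 0.12 in KO cells. Its WT call was lost without WT FBS replicate 2, at -0.28.

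**Figure D2:**
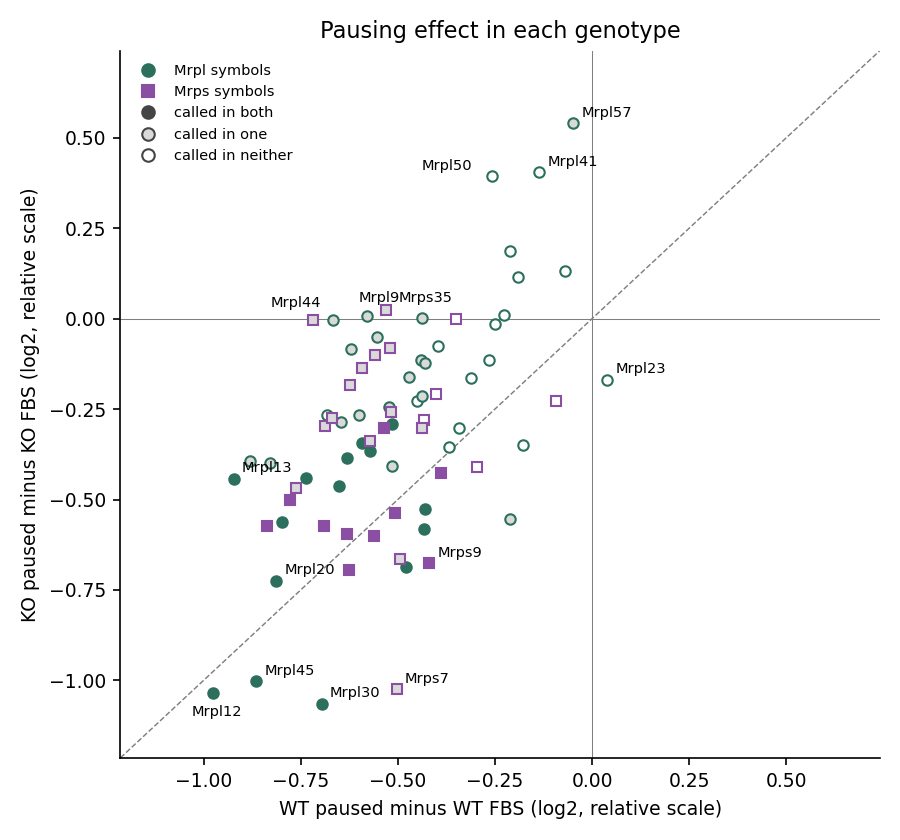
Log2 change on pausing in WT cells (horizontal) and KO cells (vertical) of each of the 77 genes, relative to the typical gene. Filled points passed the test in both genotypes (25 genes lower in both), grey points in 1 and open points in neither, and the dashed line marks equal change. Most points lie left of 0 and above the dashed line, and Mrpl57 is the one point called above 0.

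The difference between the pausing effects was tested directly as the KO effect minus the WT effect. It passed for 3 members, all with a smaller fall in KO cells, and for none in the other direction, among 9.61% of all genes higher and 8.26% lower. The other 74 were not shown to respond differently. At an unadjusted p below 0.05 the counts were 9 and 2. DESeq2 called 4 members higher and 1 lower, and library totals in place of TMM gave 0 in both directions. The median difference over the members was 0.24, and 0.09 over all genes. Leaving out WT FBS replicate 1 gave 46 and 2, with 24.3% and 17.1% of all genes, so this 1 library decided how many members were called. The count was 1 without KO FBS replicate 1 and 1 without KO paused replicate 2.

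The 3 genes were Mrpl44, Mrpl9 and Mrps35. Mrpl44, an RNase III-like protein near the exit tunnel, stood at 37.95, 55.08 and 47.4 CPM in WT FBS and at 28.82, 29.7 and 30.35 CPM in WT paused, and at 32.59, 36.34 and 38.86 CPM in KO FBS and 35.84, 36.94 and 34.86 CPM in KO paused. WT cells showed a fall with no overlap, KO cells showed overlapping levels, and the difference was 0.66 ± 0.17 (edgeR adjusted p = 0.0197). It was not called without KO FBS replicate 1 or without KO paused replicate 2, with 0.53 as the value nearest 0. Mrpl9, the homologue of bacterial L9, stood at 48.45, 49.04 and 44.35 CPM in WT FBS and at 29.01, 33.79 and 32.07 CPM in WT paused, and at 27.52, 31.68 and 33.91 CPM in KO FBS and 31.38, 31.26 and 30.99 CPM in KO paused. WT FBS was above the other 3 groups, which overlapped one another. The difference was 0.59 ± 0.14 (edgeR adjusted p = 0.012), and it held without each library in turn. Mrps35, a mitochondria-specific small subunit protein, changed by -0.53 ± 0.12 in WT and 0.02 ± 0.12 in KO cells, a difference of 0.55 ± 0.17 (edgeR adjusted p = 0.0386). That call was kept in 2 of the 12 fits that left out 1 library, those without WT FBS replicate 1 and without WT paused replicate 3, and its value nearest 0 was 0.48.

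**Figure D3:**
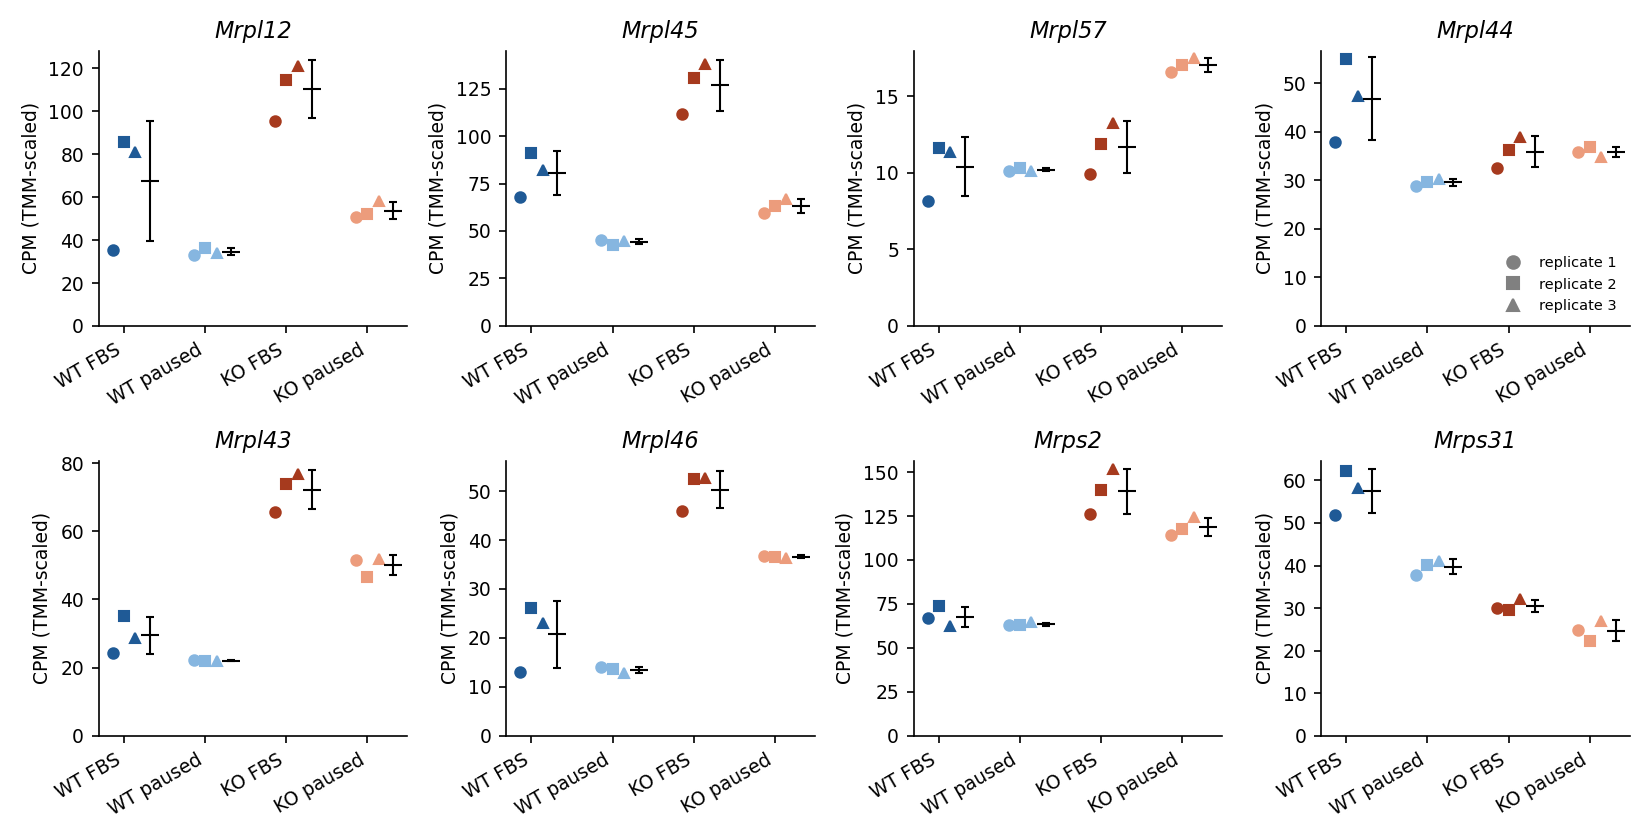
Level of 8 members in each library (CPM, TMM-scaled, vertical axes from 0) by group, with marker shape for the replicate and bars for mean ± SD (n = 3). Mrpl12 and Mrpl45 are lower when paused, apart from Mrpl12 in WT FBS replicate 1, Mrpl57 is highest in KO paused, Mrpl43, Mrpl46 and Mrps2 are higher in KO than in WT in both conditions, and Mrps31 is lower in KO.

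In FBS, members differed between knockout and wild-type cells in both directions. By the same test 20 were higher in KO cells and 19 lower, with 28.4% and 29.4% of all genes, shares near those of the members. The median was 0.02 (-0.04 over all genes). The replicates did not overlap for 21 higher and 12 lower members, against 30.2% and 28.4% of all genes. With WT FBS replicate 1 left out, 21 were higher and 34 lower, and the median was -0.13, while 34.3% of all genes were called in each direction. Library totals in place of TMM gave 22 higher and 7 lower. The count of higher members was 13 without KO FBS replicate 2 and 13 without KO FBS replicate 3.

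The highest KO to WT differences were more than 2-fold. Mrpl43 stood at 24.37, 35.12 and 28.81 CPM in WT FBS and at 65.69, 73.92 and 76.79 CPM in KO FBS, 2.43 times as high (log2 1.28 ± 0.12, edgeR adjusted p = 2.27e-06). Mrpl46, of the central protuberance, stood at 13.1, 26.09 and 23.02 CPM in WT FBS and at 45.89, 52.41 and 52.65 CPM in KO FBS (1.25 ± 0.18, edgeR adjusted p = 7.43e-05). Mrps2, the homologue of bacterial S2, stood at 66.84, 73.9 and 62.51 CPM and at 126, 139.7 and 151.7 CPM (1.04 ± 0.09, edgeR adjusted p = 1.34e-06). For these 3 genes the lowest KO library was well above the highest WT library. Mrps7 (0.97 ± 0.20), Mrps34 (0.97 ± 0.21), a mitochondria-specific protein needed for a stable small subunit, and Mrps24 (0.99 ± 0.23) were also about 2 times as high in KO FBS.

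Some of these differences touch genes that share exon bases with a neighbour. The libraries were directional, but the strand setting of the authors' counting is not given in the sources used here. Mrps24 shares 226 bases with Urgcp on the same strand, and Urgcp was 2.51 higher in KO FBS on the log2 scale, so the reads of both may not be told apart. Mrpl46 shares 173 bases with Mrps11 on the opposite strand, and Mrps11, a bacterial-type small subunit gene, had a difference of 0.00 ± 0.17. Mrpl43 shares 507 bases with Peo1 (Twnk, the mitochondrial DNA helicase) on the opposite strand, and Peo1 differed by -0.08. Mrps34 shares 763 bases with Nme3 on the same strand (difference -0.26), and 1309 bases with Mapk8ip3 on the opposite one (difference -0.31). Mrps7 shares 246 bases with Gga3 and Mif4gd together on the opposite strand, and both were called higher in KO FBS (0.29 and 0.60). In all, 8 members share exon bases with a gene on the same strand and 27 with one on the opposite strand, and 18 have a copy of at least 95% identity over at least 200 bases elsewhere.

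The lowest KO to WT values in FBS were near -0.9. Mrps31 stood at 51.92, 62.18 and 58.19 CPM in WT FBS and at 29.92, 29.46 and 32.22 CPM in KO FBS, 0.531 times as high, with no overlap (-0.91 ± 0.10, edgeR adjusted p = 7.45e-06). Mrpl39, a mitochondria-specific large subunit protein, stood at 45.56, 66.77 and 67.5 CPM and at 32.11, 34.51 and 36.27 CPM (-0.81 ± 0.13, edgeR adjusted p = 0.000171). Its KO libraries were all below its WT libraries. Mrpl47 (-0.79 ± 0.13), Mrpl50 (-0.74 ± 0.16), Mrps22 (-0.68 ± 0.16) and Mrpl49 (-0.64 ± 0.10) were lower as well, each in all 12 fits that left out 1 library. Mrps31 lies on chromosome 8, whose 766 other tested genes had a median of -0.47 in this comparison. The 40 nearest tested genes had medians of -0.45 around Mrps31, -0.23 around Mrpl39 and -0.24 around Mrpl49. Around Mrpl47, Mrpl50 and Mrps22 the medians were 0.03, 0.04 and 0.31. The part of neighbouring shifts in these values was not tested.

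Among paused cells more members were higher in KO than lower. The test called 25 higher and 6 lower, with 27.9% and 23.9% of all genes. The share of higher members was thus close to that of all genes, and the share of lower members smaller, with a median of 0.27 (0.01 over all genes). The replicates did not overlap for 40 higher and 11 lower members, against 36.2% and 33.0% of all genes. In the fit without WT FBS replicate 1 the counts were 40 and 12, with 34.7% and 30.5% of all genes. The higher count was 15 without WT paused replicate 1 and 16 without KO paused replicate 3, and library totals in place of TMM gave 33 higher and 2 lower.

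Mrpl46 showed the highest value in paused cells, at 14.02, 13.59 and 12.78 CPM in WT and 36.81, 36.61 and 36.23 CPM in KO cells (1.44 ± 0.19, edgeR adjusted p = 4.2e-05). Mrpl43 stood at 22.1, 22.06 and 21.86 CPM in WT and at 51.6, 46.66 and 51.89 CPM in KO cells (1.19 ± 0.12, edgeR adjusted p = 6.57e-06). The replicates of both genes lay close together within each genotype. Mrpl14 (1.18 ± 0.19), which shares 106 exon bases with Tmem63b on the opposite strand (difference 0.94), Mrps34 (1.17 ± 0.21), Mrps2 (0.90 ± 0.09) and Mrpl19 (0.89 ± 0.16) were also higher. Mrps12 (0.87 ± 0.25), the decoding-centre protein whose bacterial homologue is mutated in streptomycin-resistant strains, Mrpl57 (0.74 ± 0.14) and Mrps18a (0.55 ± 0.16) were higher in paused cells, and their FBS differences did not pass the test.

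The lowest values in paused cells were those of Mrps31, Mrpl30 and Mrps9. Mrps31 stood at 37.68, 40.22 and 41.15 CPM in WT and at 24.97, 22.19 and 27.03 CPM in KO cells (-0.68 ± 0.10, edgeR adjusted p = 0.000112). Mrpl30 stood at 26, 26.25 and 26.38 CPM in WT and 16.74, 16.42 and 19.38 CPM in KO cells (-0.58 ± 0.16, edgeR adjusted p = 0.00774). Mrps9 stood at 50.05, 47.67 and 50.9 CPM in WT and 32.36, 32.66 and 36.35 CPM in KO cells (-0.55 ± 0.08, edgeR adjusted p = 0.000102). In each case no KO library reached a WT library. Mrps31 lies on chromosome 8, whose other tested genes had a median of -0.437 in this comparison. Mrpl30 and Mrps9 lie on chromosome 1, where that median was -0.435. The 40 nearest tested genes had medians of -0.399 around Mrps31, -0.445 around Mrpl30 and -0.319 around Mrps9. Relative to these neighbours the members lay at -0.283, -0.135 and -0.233. The part of neighbouring shifts in these values was not tested.

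In both conditions 15 members were higher in KO cells, 75% of those higher in FBS and 60% of those higher when paused. They were Mrpl12, Mrpl14, Mrpl16, Mrpl19, Mrpl20, Mrpl23, Mrpl33, Mrpl43, Mrpl45, Mrpl46, Mrpl55, Mrps2, Mrps23, Mrps24 and Mrps34. In both conditions 5 were lower (Mrpl1, Mrpl39, Mrpl49, Mrps31 and Mrps9), and none was called in opposite directions. Mrpl12 is the least firm of those named above: its difference in FBS was 0.70 ± 0.24 (0.43 without WT FBS replicate 1, and not called without KO FBS replicate 2 or 3), and its call in paused cells (0.64 ± 0.24) was kept in 3 of 12 fits that left out 1 library.

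**Figure D4:**
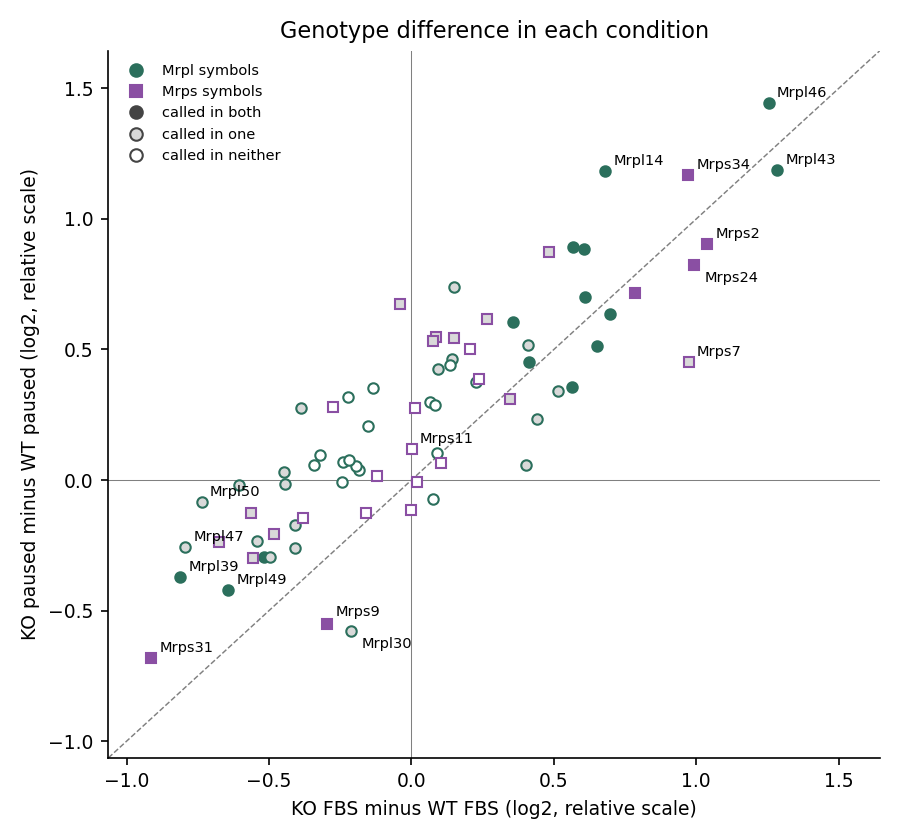
Log2 difference between KO and WT cells in FBS (horizontal) and when paused (vertical) for the 77 genes, relative to the typical gene. Filled points passed the test in both conditions (15 higher and 5 lower), grey points in 1 and open points in neither. Mrpl46 and Mrpl43 lie at the top right, Mrps31 at the bottom left, and the points spread along the dashed line of equal difference.

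Per cell, that is with libraries scaled by their ERCC counts, pausing lowered the members further. In WT cells all 77 were called lower, with 68.8% of all genes lower and 1.15% higher, and the median was -1.54 (-1.05 over all genes). An error in a library's ERCC scale moves every member of that library alike, so these calls are not independent of one another. None was higher by limma on the deposited log2 values or at an unadjusted p below 0.05. Mrpl12 gave 2.261, 5.208 and 6.034 counts per 1000 ERCC counts in WT FBS and 0.8211, 1.449 and 1.128 in WT paused, a change of -2.00 ± 0.33 (edgeR adjusted p = 5.22e-08). Mrpl23 gave the value nearest 0, at -0.97 ± 0.33 (edgeR adjusted p = 0.00726). All 77 remained lower without WT FBS replicate 1.

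In KO cells 71 members were lower per cell and none higher, with 45.7% and 2.45% of all genes, and the median was -1.04 (-0.72 over all genes). None was higher by limma or at an unadjusted p below 0.05. The count was 71 without WT FBS replicate 1, 40 without KO FBS replicate 2 and 37 without KO paused replicate 1. Mrpl30 gave 1.625, 3.516 and 2.749 counts per 1000 ERCC counts in KO FBS and 0.6336, 0.7614 and 0.8268 in KO paused (-1.83 ± 0.33, edgeR adjusted p = 6.94e-07). Mrpl57, called higher relative to the typical gene, gave 0.4752, 1.153 and 0.9187 in KO FBS and 0.628, 0.7895 and 0.7475 in KO paused. These values overlapped, with a change of -0.23 ± 0.33 per cell.

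Between genotypes per cell, 9 members were higher and 1 lower in KO FBS, with 19.1% and 9.81% of all genes, and 27 higher and none lower in KO paused, with 27.1% and 5.62% of all genes. Medians were 0.14 (0.05 over all genes) and 0.65 (0.39 over all genes). No paused difference was lower by limma or at an unadjusted p below 0.05. When WT FBS replicate 1 was left out, the FBS counts were 3 and 3 and the paused counts 27 and 0. The FBS count of higher members was 22 without KO FBS replicate 1. The paused count was 12 and 16 without WT paused replicates 1 and 3, and 14 and 13 without KO paused replicates 2 and 3. The 1 lower member in FBS was Mrps31 (-0.81 ± 0.32, edgeR adjusted p = 0.0412), a call kept in 3 of 12 fits that left out 1 library. The count of lower members there was 0 without any 1 of WT FBS replicates 2 and 3, KO FBS replicates 1 and 3, WT paused replicates 2 and 3 and KO paused replicates 1, 2 and 3, and 8 without KO FBS replicate 2. Mrpl43 (1.42 ± 0.32 in FBS and 1.56 ± 0.33 when paused) and Mrpl46 (1.39 ± 0.33 and 1.83 ± 0.33) were higher per cell in both conditions and in every such fit. By edgeR 0 members passed the test of a difference in pausing effect between genotypes per cell (3.04% of all genes higher and 1.66% lower). The median difference was 0.50 (0.37 over all genes), and 2 members were called without KO FBS replicate 2. At an unadjusted p below 0.05 the count was 3 members, and limma called 0.

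Other genes of mitochondrial translation were set beside the ribosomal proteins. A list of 7 tested genes held mitoribosome genes with other names and Oxa1l, which is no ribosomal protein. Of these 7, 3 were lower on pausing of WT cells: Dap3 (-0.38 ± 0.10), Ptcd3 (-0.44 ± 0.12) and Aurkaip1 (-0.60 ± 0.16), all of the small subunit. In KO cells 0 were called lower and Oxa1l, the inner membrane insertase that receives the new chains, was higher (0.31). With WT FBS replicate 1 left out 4 were lower and 2 higher, with 29.9% of all genes in each direction. The calls of Dap3, Aurkaip1 and Oxa1l were each lost in 2 of the 12 fits that left out 1 library. Of 13 mitochondrial translation factors 7 were lower in WT cells, among them the elongation factor Gfm1 (-0.53 ± 0.09) and the initiation factor Mtif3 (-0.55 ± 0.14), and the list median was -0.37. In KO cells 2 were lower and 1 higher. The counts of lower genes in WT cells without WT FBS replicate 1 were 6 of 7 and 10 of 13, with 31.1% of all genes, and without WT FBS replicate 2 they were 1 and 4. The translation factors gave 3 when either WT FBS replicate 3 or WT paused replicate 1 was left out. In KO cells 6 translation factors were lower and 3 higher without WT FBS replicate 1, with 29.9% of all genes in each direction. None was lower there without KO FBS replicate 2 or 3 or without KO paused replicate 1 or 2.

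Of 26 assembly factors, RNA modifiers and GTPases that build the ribosome, 7 (26.9%) were lower in WT cells and 1, Mterf4, was higher (0.58 ± 0.10), with a median of -0.10. The share lower stood beside 20.2% of all genes, and the count was 4 when WT FBS replicate 2, WT FBS replicate 3 or WT paused replicate 1 was left out. In KO cells 1, the methyltransferase Mrm1, was lower (-0.65) and 5 (19.2%, beside 23.3% of all genes) were higher, among them the helicase Ddx28 (0.54) and the GTPase Noa1 (0.47). Rpusd4, a pseudouridine synthase acting on mitochondrial ribosomal RNA, was lower in WT cells (-0.75 ± 0.12) and higher in KO cells (0.40 ± 0.12). Its pausing effects differed by 1.15 ± 0.17 (edgeR adjusted p = 0.000819), which held without each library in turn. The call in KO cells was kept in 8 of those 12 fits.

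Of 18 genes of mitochondrial DNA and RNA upkeep 5 were lower and 1 higher in WT cells, with the lower ones led by the RNase Elac2 (-0.69 ± 0.11) and Polg, the DNA polymerase, the higher one (0.34). In KO cells Peo1 (0.64) and Mterf2 (0.59) were higher and Pnpt1 (-0.57), a nuclease, lower. Of 19 mitochondrial aminoacyl-tRNA synthetases and related enzymes 4 (21.1%) were lower in WT cells, near the share of all genes. In KO cells 3 of them (15.8%) were higher, under the share of all genes, and 2 lower. With WT FBS replicate 1 left out 10 were higher, with 29.9% of all genes. Of 11 regulators of mitochondrial genes, among them the factors that bind the letters shown above, none was called in WT cells by edgeR (1 was lower at an unadjusted p below 0.05 and DESeq2 called 1 lower), and Gabpb2, a subunit of GABP, was higher in KO cells (0.43). With WT FBS replicate 1 left out, 5 of the 11 were lower in WT cells, as were 9 of the 18 upkeep genes and 11 of the 26 assembly genes, with 31.1% of all genes. In KO cells that fit gave 5 of the 18 upkeep genes lower, beside 29.9% of all genes. The upkeep count in WT cells was 3 without WT paused replicate 1 and 3 without WT paused replicate 2, and the synthetase count was 2 when any of WT FBS replicates 2 and 3 and WT paused replicates 1 and 3 was left out.

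The members lie on 17 chromosomes, and in KO cells many of the lowest lay on chromosome 11. This split was made after the values were seen and carries no test. On chromosome 11, 8 of 10 members were lower on pausing of KO cells with a median of -0.68, and the 1218 other tested genes of that chromosome had a median of -0.15. In WT cells 6 of these 10 were lower, with a median of -0.50 against -0.07. Over all tested genes of all chromosomes, 19.4% were called lower on pausing of KO cells and 20.2% on pausing of WT cells. Calls among the other genes of chromosome 11 were not counted. On chromosome 1, 2 of 5 members (Mrpl30 and Mrps9) were lower in KO cells, with a median of -0.26, close to the -0.27 of members on the chromosomes other than 1 and 11. On those other chromosomes, 18 of 62 members were lower and 1 higher in KO cells and 42 of 62 lower in WT cells. In FBS 8 of the 10 chromosome 11 members were higher in KO than in WT cells, with a median of 0.55 against 0.17 for the other genes of that chromosome. Of all tested genes 28.4% were called higher in KO FBS.

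Neighbouring genes moved with several of the members that fell most in KO cells, but not with all of them. Over the 40 nearest tested genes the median change on pausing of KO cells was -0.52 around Mrpl30 (chr1:37890477-37898535), -0.69 around Mrps9 (chr1:42851233-42905683), -0.73 around Mrpl27 and -0.52 around Mrpl45 (chr11:97315716-97329920). Around Mrps7 (chr11:115603925-115608036) it was -0.32 and around Mrpl12 (chr11:120484613-120489065) -0.26. Mrps9 thus lay 0.02 above its neighbours, while Mrpl12 lay at -0.77 and Mrps7 at -0.71 relative to theirs. The neighbour median in KO cells was above 0 around other members called lower there: Mrpl20 (0.13), Mrps10 (0.18), Mrps6 (0.27) and Mrpl48 (0.20). In WT cells the medians around Mrpl30, Mrps9 and Mrpl45 were -0.06, -0.21 and -0.06. Across the 77 members the change in KO cells and that of the neighbours had a Pearson r of 0.479 (Spearman rho 0.314), and in WT cells of -0.121 (-0.185). These are descriptions across genes, which share libraries and, on one chromosome, neighbours. Positions are those of GENCODE vM21 on GRCm38 (mm10).

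**Figure D5:**
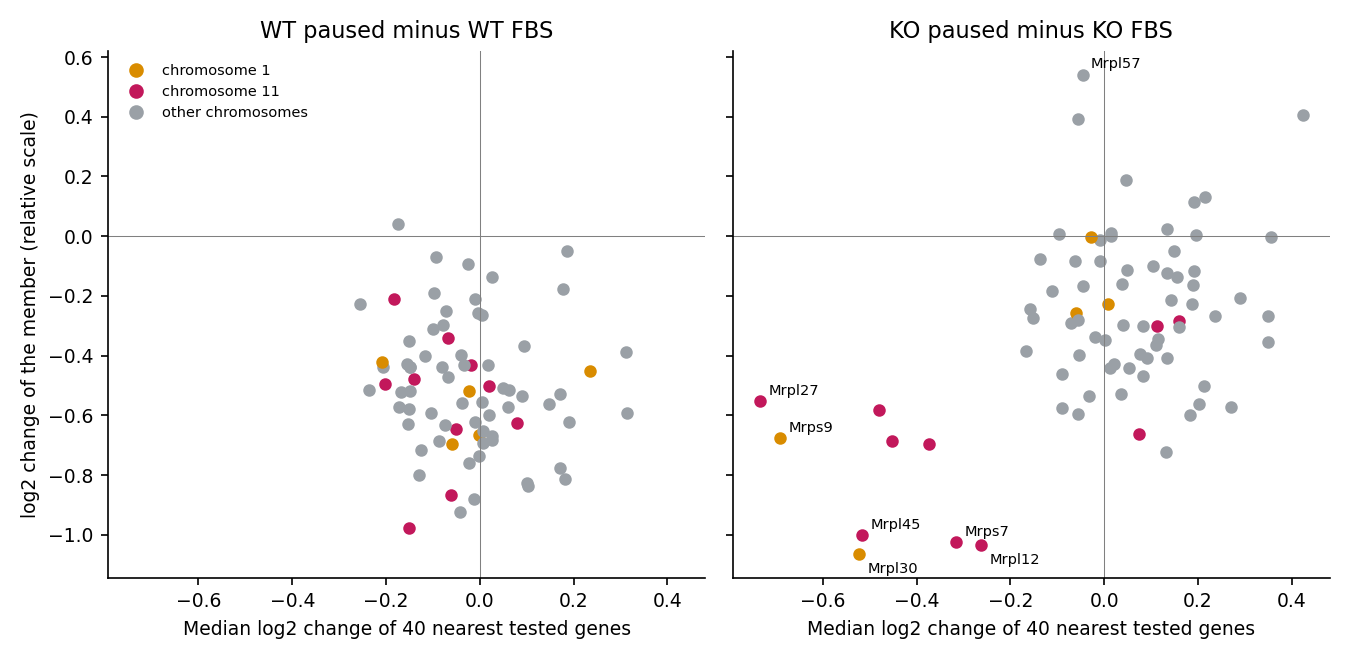
Log2 change on pausing of each member (vertical) against the median change of its 40 nearest tested genes (horizontal), in WT cells (left) and KO cells (right), relative to the typical gene. Members on chromosomes 1 and 11 are coloured. In KO cells Mrpl27, Mrps9, Mrpl45 and Mrpl30 lie at the left, where neighbours were lower too, while Mrpl57 lies at the top with a neighbour median near 0.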

How the data were processed

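RNA from equal numbers of cells (200000 per sample) was spiked with ERCC RNAs, and polyadenylated RNA was made into directional libraries, per the labels. The authors deposited raw read counts per gene symbol, with 24421 gene rows and 92 ERCC rows. They also deposited log2 values normalised to cell number, used here for 1 alternative. Per the submitters' processing notes, the tools were edgeR 3.32.1, Subread 1.5.0, featureCounts and Trim Galore 0.4.0, with the mm10 build. Not given in the sources used here are the aligner, the annotation and the strand setting.

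Counts of all 12 samples entered 1 edgeR 4.0.16 fit (R 4.3.3) of 4 group means with robust quasi-likelihood tests. The default filter (minimum count 10, minimum total 15) kept 15281 genes, over which the Benjamini-Hochberg adjustment was made (threshold 0.05). Library size was the gene total times its TMM factor (relative to the typical gene) or the ERCC total times a TMM factor over ERCC rows (per cell). The steps were tested on simulated counts. Total counts ranged from 10615548 to 39566713 per library.

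The members and gene lists were chosen with earlier results of these data known. Members named are, per comparison, up to 6 with the highest and 6 with the lowest change among those called without overlap, those against the majority, those with different pausing effects, the stalk, exit tunnel and central protuberance genes and a few fixed names. From other lists, up to 4 called genes with the lowest p and those against their list were eligible, and the choice among them was made after their values were seen, as was that of the promoters shown and of Mrps11 and Mrpl33.

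Replicate numbers were compared by the correlation of same-numbered samples' deviations from their group means. It was 0.345, 0.105 and 0.269 for KO FBS and KO paused, so these numbers were taken to pair the samples. The reported fit has no block, and blocked counts are given beside pausing of KO cells. The correlation was 0.19, 0.092 and 0.113 for WT FBS and WT paused. Alternatives were DESeq2 1.42.0, library totals without TMM, no count filter, a replicate block, leaving out each library and, chosen after seeing the data, limma 3.58.1 on the deposited log2 values.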

Additional observations from a re-analysis of the deposited data

Results flagged for a closer look

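A set of 3 members was singled out because the fall on pausing in WT cells and the change in KO cells differed by the test of the difference itself. They were 3.9% of the 77 members, a smaller share than the 9.61% of all tested genes called in that direction. The KO effect minus the WT effect was 0.66 for Mrpl44, 0.59 for Mrpl9 and 0.55 for Mrps35 on the log2 scale (relative to the typical gene, with edgeR's adjusted p = 0.0197, 0.012 and 0.0386). Without WT FBS replicate 1, the library with the lowest levels of most members, the values were 0.77, 0.55 and 0.65. Dropping 1 library at a time lost the Mrps35 call in most fits, the Mrpl44 call in a few and the Mrpl9 call in none. Per cell, the differences were 0.92 ± 0.45, 0.82 ± 0.45 and 0.82 ± 0.46 and none passed the test (edgeR adjusted p = 0.297, 0.372 and 0.377). Mrpl44 shares 126 exon bases with Wdfy1 and Mrpl9 157 with Oaz3, both on the opposite strand.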

How the results depend on the processing

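No named result changed direction under any alternative run. Of the 198 calls for single genes relative to the typical gene, 101 were kept in all 16 alternatives, and of 180 per cell, 117. Library totals without TMM, which raised the median of all genes to 0.08 and 0.09 in the pausing comparisons and to 0.16 and 0.17 between genotypes, gave 18 lower members on pausing in WT cells, 13 lower in KO cells, 7 lower in KO FBS, 2 lower in KO paused and 0 with different pausing effects. DESeq2 called 1 member with a more negative pausing effect in KO cells. ERCC totals without TMM gave 0 members lower per cell in KO FBS.

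Leaving out each library gave the following ranges relative to the typical gene: 0 higher and 27 to 73 lower for pausing of WT cells, 1 to 3 and 13 to 50 for KO cells, 13 to 22 and 13 to 34 for KO against WT in FBS, 15 to 40 and 4 to 12 when paused, and 1 to 46 and 0 to 2 for the difference of pausing effects. Per cell they were 0 and 76 to 77, 0 and 37 to 74, 3 to 22 and 0 to 8, 12 to 39 and 0, and 0 to 2 and 0. The cause was not tested.

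With the replicate block, 3 members were higher on pausing of KO cells and 7 had a higher pausing effect in KO cells. Per cell with the block, 16 were higher and 7 lower in KO FBS, 41 higher in KO paused and 4 had a higher pausing effect in KO cells. It moved no other count by more than 1.5 times. The shares of all genes called with the block are not given here, so these counts do not set the members apart from other genes. For the comparisons other than pausing of KO cells the numbers are not known to pair samples: between WT FBS and WT paused 4 of 6 samples correlated best with their own number, and between genotypes 4 of 6 in FBS and 5 of 6 when paused, a hint from the data and not from the design. Counts of members with fewer than 100 reads in a library, such as Mrpl14, carry the largest counting error.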
